A study of Mus musculus with 20 samples.

Results

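The 10 genes of the disease-associated microglia programme were followed through 20 cortex RNA libraries of aged APOE4 mice, and they are the receptor pair Trem2 and Tyrobp, the lysosomal gene Cd68, the surface genes Itgax and Clec7a, the protease inhibitor gene Cst7, the lipase gene Lpl, and Spp1, Gpnmb and Cd9. They were taken by name from the genes linked to the Trem2-dependent activated state, 10 of the 23413 gene names in the count tables. All 10 had enough counts to be among the 15660 genes tested. Counts ranged from 3 reads (Itgax, KD male E256) to 2213 reads (Spp1, KD male E213) per library.

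The mice of all groups carried the human APOE4 allele in place of mouse Apoe, as the allele tm1.1(APOE*4)Adiuj on a B6(SJL) background. They ate a control diet (CD) or a ketogenic diet (KD) of equal calories for 12 months from the age of 10 months, were housed singly, and were killed at 22 months after an overnight fast. Females numbered 5 on the CD and 4 on the KD and males 5 on the CD and 6 on the KD, with 1 total RNA library for each mouse, and each library is called by its animal below. No mouse without the APOE4 allele and no young mouse was among them, so the comparisons are of diet, of sex and of library series within old APOE4 mice. The library numbers form 2 series of 10 (S43 and S47 numbers, series 1 and series 2), and each group has libraries in both. Series 1 held E51, E53, E58, E59, E61, E62, E64, E66, E67 and E68.

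Microglia are the resident macrophages of the brain. Trem2 is a surface receptor for lipids and lipoproteins, apolipoprotein E among them, and it signals through the adaptor protein made from Tyrobp (DAP12), which recruits the kinase Syk. Around amyloid plaques and in other damaged tissue, microglia lower their homeostatic genes and raise a set that includes Cst7, Lpl, Itgax, Clec7a, Spp1, Cd9, Gpnmb and lysosomal genes, and much of that set depends on Trem2. Several of the genes are not made by microglia alone. Neurons and vascular cells make Lpl, some neurons and border cells make Spp1, and oligodendrocytes make Cd9.

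The RefSeq promoter windows (GRCm38.p6, around the start of transcription, written 5′ to 3′ on the gene's strand) are shown for 5 genes of the 2 groups whose levels went together across libraries, as described later. The motif searched was GAGGAAG, a form of the site recognised by the myeloid factor PU.1, on both strands. Capitals mark a match of these letters (CTTCCTC is the reverse strand), and other forms of the site were not searched. The windows lie at chr17:48346151-48346450 (+) for Trem2, chr11:69666121-69666420 (-) for Cd68, chr2:150570165-150570464 (+) for Cst7, chr7:128129300-128129599 (+) for Itgax and chr6:129472730-129473029 (-) for Clec7a.
Trem2: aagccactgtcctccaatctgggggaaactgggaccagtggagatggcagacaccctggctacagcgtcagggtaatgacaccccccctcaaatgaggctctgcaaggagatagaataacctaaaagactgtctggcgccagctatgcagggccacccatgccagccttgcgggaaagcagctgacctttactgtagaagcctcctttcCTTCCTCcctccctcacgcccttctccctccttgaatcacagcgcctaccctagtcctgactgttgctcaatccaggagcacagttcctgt
Cd68: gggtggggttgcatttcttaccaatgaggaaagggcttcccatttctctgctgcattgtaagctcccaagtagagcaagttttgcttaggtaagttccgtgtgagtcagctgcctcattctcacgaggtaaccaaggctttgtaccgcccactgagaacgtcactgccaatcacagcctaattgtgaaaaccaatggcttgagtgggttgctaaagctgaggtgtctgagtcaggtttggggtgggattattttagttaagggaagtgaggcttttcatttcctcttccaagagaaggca
Cst7: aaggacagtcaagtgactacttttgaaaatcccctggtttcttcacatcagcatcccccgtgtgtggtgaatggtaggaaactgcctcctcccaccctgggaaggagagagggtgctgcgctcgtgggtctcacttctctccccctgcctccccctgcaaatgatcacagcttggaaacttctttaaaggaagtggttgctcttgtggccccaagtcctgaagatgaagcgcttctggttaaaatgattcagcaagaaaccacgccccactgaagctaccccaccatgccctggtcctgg
Itgax: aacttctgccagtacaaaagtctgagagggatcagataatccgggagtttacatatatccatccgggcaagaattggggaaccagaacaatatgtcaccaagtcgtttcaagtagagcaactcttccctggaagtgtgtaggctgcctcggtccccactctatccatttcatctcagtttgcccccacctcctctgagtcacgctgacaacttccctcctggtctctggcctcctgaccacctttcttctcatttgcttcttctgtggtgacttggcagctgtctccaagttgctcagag
Clec7a: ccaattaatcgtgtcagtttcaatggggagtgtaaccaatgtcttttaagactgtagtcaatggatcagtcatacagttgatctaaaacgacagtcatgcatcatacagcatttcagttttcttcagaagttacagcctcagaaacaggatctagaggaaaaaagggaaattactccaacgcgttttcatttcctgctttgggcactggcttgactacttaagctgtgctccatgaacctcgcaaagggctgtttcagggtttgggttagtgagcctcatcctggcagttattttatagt

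GAGGAAG was in the windows of Trem2 and Spp1, 2 of the 8 genes with a window in the table, and in 13.6% of all 32851 windows. CACGTG, the E-box bound by lysosomal regulators of the MiT/TFE family, was in 0 of the 10 windows of these genes and in 7.15% of all windows. A match of letters is a description and not a binding site. No window was used for Tyrobp and Lpl. In the GENCODE annotation of GRCm38, Trem2 lies at chr17:48346401-48354147 (+), Tyrobp at chr7:30413760-30417585 (+), Cd68 at chr11:69664213-69666153 (-), Itgax at chr7:128129547-128150657 (+), Clec7a at chr6:129461591-129472779 (-), Cst7 at chr2:150570415-150578944 (+), Lpl at chr8:68880491-68907448 (+), Gpnmb at chr6:49036546-49070929 (+), Spp1 at chr5:104435118-104441050 (+) and Cd9 at chr6:125460266-125494791 (-). Exons of Spp1 share 309 bases with the gene model Gm42793 on the same strand, so reads there may not all be counted for Spp1. Exons of Cd9 share 218 bases with gene models on the opposite strand, and the strand counted is not stated.

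Library totals were 21015275 to 29109990 counts in series 1 and 12207161 to 17697342 counts in series 2. Xist was at 319 CPM (counts scaled by the total of the library) or more in all 9 female libraries and at 7.59 CPM or less in the males, although the CD female E228 held Ddx3y, a gene of the Y chromosome, at 14.0 CPM. Mouse Apoe, replaced by the human allele, was at 1.33 to 3.34 CPM. Marker genes of striatum, a brain region beneath the cortex, summed to between 2892 and 4410 CPM in E59, E61, E68 and E207 and to between 301 and 1375 CPM in the other 16 libraries. KD male E59 also held choroid plexus markers at 2390 CPM, against at most 67.4 CPM elsewhere. KD female E227, at 426 CPM of striatal markers, was unlike the other KD females and near the CD females, and CD female E249, at 1375 CPM, was above the other CD females (301 to 406 CPM). E227, E249 and E59 thus stood apart from their groups, and values without these 3 are given beside the results that move. Without them the striatal markers were at 2892 to 3709 CPM in every KD female and at 301 to 406 CPM in every CD female. In this setting diet and striatal content cannot be told apart in females. The same holds within series 1, with 2892 and 3182 CPM in KD females and 363 and 406 CPM in CD females. Without E249 alone or without E227 alone, the striatal sums of the female diets did not overlap either. The 4 haemoglobin genes in the tables had no counts, and 11 of the 16 blood leukocyte markers in the tables, those of T and B cells among them, were too low to be tested.

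Per kilobase of exon, Tyrobp was the most abundant of the 10 genes, at a mean of 23.5 CPM per kb (SD 5.41, n = 20). Spp1 followed at 18.4 and Cd9 at 14.1 CPM per kb, and Cd9 was above Spp1 in 12 of the 20 libraries. Then came Cd68 at 3.59, Lpl at 2.41, Trem2 at 1.34, Cst7 at 1.31 and Clec7a at 1.17 CPM per kb. Gpnmb at 0.520 and Itgax at 0.277 CPM per kb were the lowest. The length was the union of all annotated exons of a gene, which can exceed that of its transcript, and the order depends on it. In CPM alone Trem2 (4946 bases) was at 2.86 to 10.8 and Cst7 (986 bases) at 0.288 to 2.54. Per kb, Spp1 and Cd9 were not separated, nor were Trem2, Cst7 and Clec7a. Trem2 was above Cst7 in 11 of 20 libraries and Cst7 above Clec7a in 12 of 20. The other neighbours kept their order in 17 to 20 of the 20 libraries. Relative to the mean, Spp1 varied most across libraries (coefficient of variation 99.7%), followed by Itgax at 67.2% and Clec7a at 65.5%, and Tyrobp, Cd9, Trem2 and Cd68 varied least, at 23.0% to 28.0%.

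**Figure D1:**
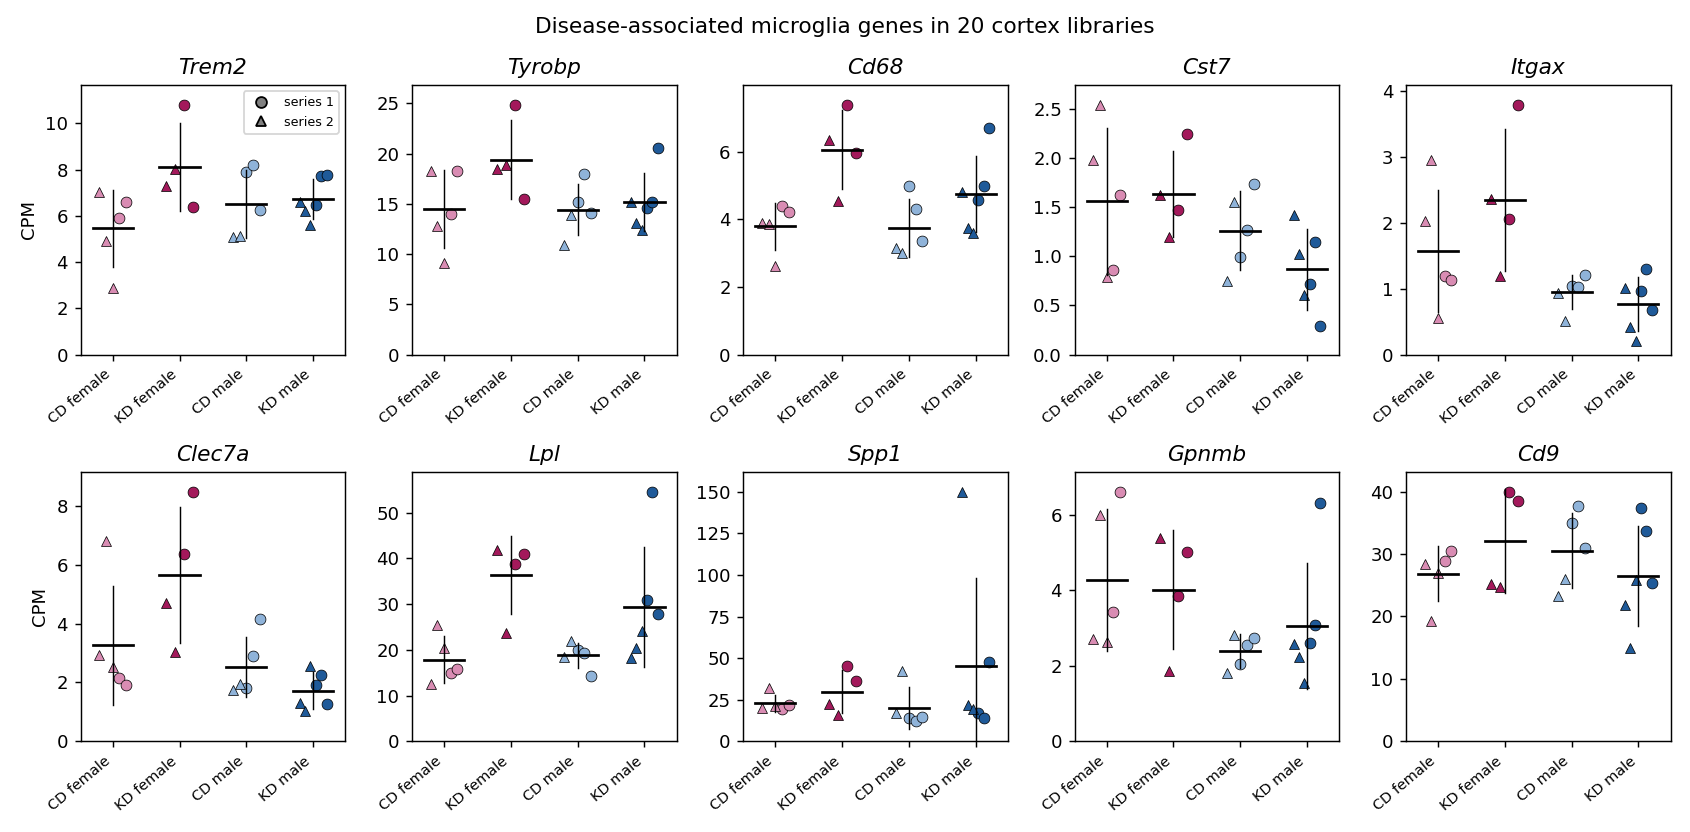
Level of each gene in CPM (y axes start at 0) in each of the 20 libraries, by diet and sex. Circles are library series 1 and triangles series 2, the horizontal line is the group mean and the vertical line is ± 1 SD (for Spp1 in KD males it extends below 0 and is cut there). The 4 KD females lie above the 5 CD females for Cd68, and KD male E213 reaches 150.1 CPM for Spp1.

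In females, 9 of the 10 genes had a higher fitted level on the KD than on the CD, and the median log2 fold change was 0.47, against 0.013 over all genes tested. The female median was 0.20 with the score of homeostatic microglial genes as a covariate and 0.23 with the striatal score. In males 6 of the 10 were higher, with a median of 0.08 against -0.003. Markers of cortical excitatory neurons were lower on the KD in 11 of 14 in females (median -0.77, 6 at an unadjusted p under 0.05) and in 12 of 14 in males (median -0.12, none at that p). Their sums were 911 to 1700 CPM in CD females, 1016 to 1439 CPM in KD females, 1443 to 1703 CPM in CD males and 1302 to 1707 CPM in KD males. None of the 14 was at 0 in any library. CD female E249 (911 CPM) and KD females E68 (1016), E61 (1020.5) and E207 (1185) had striatal sums of 1375 to 3709 CPM. KD female E227, at 426 CPM of striatal markers, was at 1439 CPM, and the other CD females were at 1421 to 1700 CPM. The part of striatal content in the cortical values was not tested. Across libraries the cortical score ran against Clec7a (r = -0.71), Gpnmb (-0.59), Itgax (-0.59) and Cd68 (-0.54), and its part in the diet values was not tested. No single gene passed the study's threshold of FDR 0.1 and a 1.5-fold change in either sex. The test was edgeR's quasi-likelihood F test with the library series in the model, and 0.0447% of all genes passed that threshold in females and 0% in males. At an unadjusted p under 0.05, 3 of the 10 were higher on the KD in females (Cd68, Lpl and Trem2), where 11.4% of all genes were under it in either direction. In males there were 2 (Lpl and Cd68), where 3.56% of all genes were. The likelihood ratio test of edgeR and the Wald test of DESeq2 each called Lpl in females, and neither called any of the 10 in males. Of all genes, the former called 220 in females and the latter 253, and each called 0 in males. In bulk tissue, fewer cells of a type and less RNA per cell cannot be told apart.

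**Figure D2:**
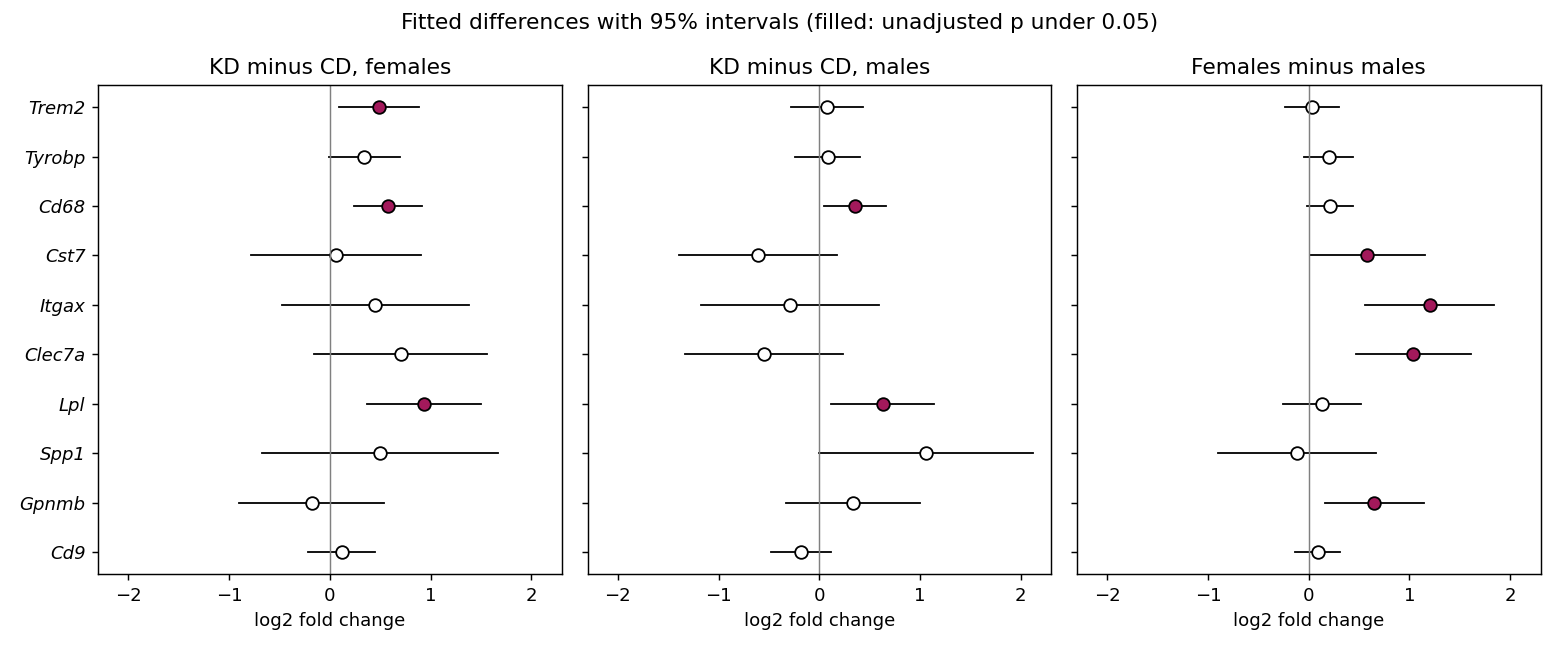
Fitted log2 fold change of each gene (x axis) with its 95% interval, for KD minus CD in females, KD minus CD in males, and females minus males averaged over the diets. Filled points have an unadjusted p under 0.05, and none passed FDR 0.1. Cd68 and Lpl lie above 0 in both diet panels, and Itgax, Clec7a, Gpnmb and Cst7 lie above 0 in the sex panel.

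Trem2, the receptor, was at 5.90 (E62), 6.61 (E67), 4.92 (E249), 2.86 (E265) and 7.01 CPM (E228) in CD females. In KD females it was at 10.8 (E61), 6.38 (E68), 7.29 (E207) and 8.01 CPM (E227). Of the KD females 3 lay above all CD females, E68 lay among them, and E265 was the lowest of all 20 libraries. Its log2 fold change in females was 0.49 (SE 0.189, 95% interval 0.09 to 0.88), with adjusted p = 0.322 by edgeR. Leaving out each library in turn moved it between 0.36 and 0.64. In CD males Trem2 was at 7.89 (E51), 8.18 (E58), 6.25 (E66), 5.08 (E251) and 5.11 CPM (E264), and in KD males it ran from 5.62 to 7.74 CPM with a median of 6.53. The male groups overlapped throughout, and the log2 fold change was 0.08 (SE 0.171, 95% interval -0.28 to 0.43).

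Tyrobp, the adaptor through which Trem2 signals, was at 14.0 (E62), 18.2 (E67), 12.8 (E249), 9.13 (E265) and 18.3 CPM (E228) in CD females. In KD females it was at 24.8 (E61), 15.5 (E68), 18.5 (E207) and 18.8 CPM (E227). As for Trem2, 3 of the 4 KD females lay above all CD females, with E68 among the CD values. In females the log2 fold change was 0.34 (SE 0.168, 95% interval -0.01 to 0.69, adjusted p = 0.463 by edgeR). In males the medians were 14.1 CPM on the CD and 14.9 CPM on the KD, and the log2 fold change was 0.08 (SE 0.153). KD male E64, at 20.6 CPM, was the highest male library.

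Cd68, a glycoprotein of the lysosomal membrane in phagocytes, had a diet difference of one direction in every setting tried. In CD females it was at 4.38 (E62), 4.21 (E67), 3.85 (E249), 2.62 (E265) and 3.90 CPM (E228). KD females were at 7.38 (E61), 5.94 (E68), 6.33 (E207) and 4.55 CPM (E227). All 4 KD females lay above all 5 CD females, and no other gene of the 10 separated the diets in either sex. The libraries of the diets did not overlap for 2.1% of all genes in females and for 0.217% in males. The fitted log2 fold change was 0.58 (SE 0.162, 95% interval 0.24 to 0.92), with adjusted p = 0.202 by edgeR.

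Within series 1 alone the difference of Cd68 in females was 0.59 and within series 2 alone it was 0.58. It stayed between 0.47 and 0.65 when any 1 library was left out, and it was 0.46 with the striatal score as a covariate and 0.45 with the score of homeostatic microglial genes. Without E227, E249 and E59, where diet and striatal content cannot be told apart, it was 0.69 with adjusted p = 0.0174 by edgeR. In males Cd68 was at 4.99 (E51), 4.29 (E58), 3.35 (E66), 3.14 (E251) and 2.99 CPM (E264) on the CD and at 3.59 to 6.70 CPM on the KD (median 4.70). All 6 KD males lay above the CD median and 2 lay above all CD males, and the log2 fold change was 0.36 (SE 0.147, adjusted p = 0.9998 by edgeR). The difference between the sexes in the effect of the diet was 0.22 (95% interval -0.24 to 0.68), so it was not detectable here.

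Lpl encodes lipoprotein lipase, which splits the triglycerides of lipoproteins. In CD females it was at 15.0 (E62), 15.8 (E67), 25.4 (E249), 20.5 (E265) and 12.6 CPM (E228). KD females were at 38.7 (E61), 41.0 (E68), 41.9 (E207) and 23.6 CPM (E227). E61, E68 and E207 stood clear of the CD females, and E227 lay below E249. The log2 fold change of 0.93 (SE 0.271, adjusted p = 0.214 by edgeR) was the largest of the 10 in females, with a lower 95% bound of 0.37. Without E227, E249 and E59 it was 1.28 with adjusted p = 0.000143, but those females differ as completely in striatal markers as in diet. Over all 20 libraries the adjusted p was 0.0671 by DESeq2, 0.0675 by the likelihood ratio test and 0.0849 with 2 RUVg factors in place of the series.

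In CD males Lpl was at 19.9 (E51), 19.4 (E58), 14.3 (E66), 18.5 (E251) and 21.8 CPM (E264). KD males ran from 18.2 to 54.6 CPM with a median of 26.0, and 4 of 6 lay above all CD males. The log2 fold change was 0.63 (SE 0.245, adjusted p = 0.9998 by edgeR), and it was 0.37 without E59, the highest of all libraries. By series it was 1.05 in series 1 and 0.07 in series 2. In females the same values were 1.33 and 0.68, and in series 1 the female diets did not overlap in striatal sums.

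The 4 libraries with the highest Lpl (E59, E207, E68 and E61) were the same 4 that had the highest summed striatal markers. All 19 tested striatal markers were higher on the KD in both sexes, and the median of their log2 fold changes was 2.09 for females and 1.42 for males. Their sums ran from 301 to 1375 CPM in CD females, from 426 to 3709 CPM in KD females, from 342 to 782 CPM in CD males and from 339 to 4410 CPM in KD males, and Isl1 alone among them was at 0 in some library. The highest male sum was that of E59, and the median sums of the male diets lay close, at 396.7 CPM on the KD and 372.8 CPM on the CD. Of the 19 markers, 15 were at an unadjusted p under 0.05 in females and 1 in males, where 11.4% and 3.56% of all genes were. Across the 20 libraries, with the mean of each series subtracted, Lpl followed the striatal score with Pearson's r = 0.78 (Spearman's rho 0.53), and r was 0.61 without E59 and E207. With the striatal score as a covariate the log2 fold change of Lpl in females was 0.38 (adjusted p = 0.886), and in males it was 0.48. The part of striatal tissue in the difference was not tested beyond this covariate.

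Itgax encodes CD11c, a subunit of an integrin that marks dendritic cells and activated microglia, and it was the least abundant gene of the set. CD females were at 1.19 (E62), 1.13 (E67), 2.95 (E249), 0.556 (E265) and 2.03 CPM (E228). KD females were at 2.06 (E61), 3.79 (E68), 2.35 (E207) and 1.20 CPM (E227). The female groups overlapped, with E249 above 3 of the 4 KD females. In males Itgax was at 1.04 (E51), 1.03 (E58), 1.21 (E66), 0.942 (E251) and 0.517 CPM (E264) on the CD. On the KD it was at 0.203 to 1.29 CPM with a median of 0.825. The log2 fold changes were 0.45 (SE 0.444) in females and -0.29 (SE 0.420) in males, and both intervals included 0.

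Clec7a encodes dectin-1, a receptor for fungal glucans that activated microglia carry. CD females were at 2.14 (E62), 1.90 (E67), 6.80 (E249), 2.54 (E265) and 2.94 CPM (E228). KD females were at 6.37 (E61), 8.49 (E68), 4.71 (E207) and 3.05 CPM (E227). E249 was far above the other CD females, and of the KD females only 1 lay above all CD females. In males Clec7a was at 1.82 (E51), 2.89 (E58), 4.15 (E66), 1.76 (E251) and 1.95 CPM (E264) on the CD and at 1.02 to 2.57 CPM on the KD (median 1.61). Of the KD males 3 lay below all CD males.

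The log2 fold change of Clec7a was 0.70 (SE 0.409, adjusted p = 0.559 by edgeR) in females and -0.55 (SE 0.373, adjusted p = 0.9998) in males. With the striatal score as a covariate the female value was 0.13, and with the oligodendrocyte score the male value was -0.085, and Clec7a had r = 0.65 with each of these scores. The diet by sex difference was 1.25 (95% interval 0.07 to 2.43, adjusted p = 0.9999 by edgeR), and Clec7a was the 1 gene of the 10 with an unadjusted p under 0.05, where 2.14% of all genes had one. None of the 10 genes and 0% of all genes passed the FDR and fold threshold for this difference by edgeR, and none of the 10 passed by DESeq2. The diet by sex value of Clec7a was 0.043 in series 2 alone, 0.56 with the oligodendrocyte score and 0.79 with the striatal score. In females the value for Clec7a was 1.84 (adjusted p = 0.0521 by edgeR) in series 1 and -0.14 in series 2. In series 1, 865 of all genes were called in females, and the striatal sums of the female diets did not overlap. Without E249 alone the value was 1.15 (adjusted p = 0.0610 by edgeR), with 1046 of all genes called and the same lack of overlap. Without E227, E249 and E59 the diet by sex difference was 1.999 (adjusted p = 0.0206), as 1 of 2 members called, with Lpl at 0.91 (adjusted p = 0.0387), and 976 of all genes were called in that setting, in which the striatal markers separate the female diets completely.

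Cst7 encodes cystatin F, an inhibitor of lysosomal cysteine proteases, and in CD females it was at 0.857 (E62), 1.62 (E67), 2.54 (E249), 0.794 (E265) and 1.98 CPM (E228). KD females were at 1.48 (E61), 2.24 (E68), 1.62 (E207) and 1.20 CPM (E227), inside the CD range. CD males were at 0.997 (E51), 1.27 (E58), 1.73 (E66), 0.753 (E251) and 1.55 CPM (E264), and KD males ran from 0.288 to 1.42 CPM (median 0.870). Of the KD males 3 lay below all CD males. The log2 fold changes were 0.06 (SE 0.404) in females and -0.61 (SE 0.376, adjusted p = 0.9998 by edgeR) in males, and the male value was -0.23 with the oligodendrocyte score as a covariate.

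Spp1 encodes osteopontin, a secreted glycoprotein. CD females were at 19.5 (E62), 21.8 (E67), 32.0 (E249), 21.3 (E265) and 20.3 CPM (E228), and KD females at 44.999 (E61), 36.1 (E68), 22.7 (E207) and 16.03 CPM (E227). The KD females split by library series, since E61 and E68 of series 1 lay above all CD females and E227 of series 2 lay below all of them. The log2 fold change in females was 0.93 in series 1 and -0.41 in series 2, and 0.50 (SE 0.559) in both together. CD males were at 14.2 (E51), 12.2 (E58), 14.8 (E66), 17.0 (E251) and 42.6 CPM (E264), and KD males ran from 14.3 to 150.1 CPM with a median of 20.6. KD male E213 accounted for most of the male difference, which was 1.06 (SE 0.507, adjusted p = 0.9998 by edgeR) with it and 0.26 without it. DESeq2 gave Spp1 no p in males.

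Meningeal fibroblast markers varied with Spp1 across the 20 libraries (r = 0.65, rho 0.84), with r = 0.93 within series 1 and 0.42 within series 2. All 12 markers were higher on the KD in males, with a median of 0.74 on the log2 scale, and 11 of 12 were in females, with a median of 0.34. Their sums ran from 60.5 to 240 CPM in CD males, from 125 to 553 CPM in KD males, from 114 to 339 CPM in CD females and from 162 to 292 CPM in KD females, and none of the 12 was at 0 in any library. E213 was at 160 CPM. With the fibroblast score as a covariate, chosen after the values of Spp1 had been seen, the log2 fold change of Spp1 was 0.52 in males and 0.03 in females.

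Gpnmb encodes a glycoprotein of late endosomes and lysosomes. In CD females it was at 3.43 (E62), 6.61 (E67), 5.98 (E249), 2.62 (E265) and 2.71 CPM (E228), and in KD females at 3.84 (E61), 4.997 (E68), 5.37 (E207) and 1.85 CPM (E227). It was the member with a lower fitted level on the KD in females, at -0.18 (SE 0.345), with groups that overlapped. CD males were at 2.04 (E51), 2.54 (E58), 2.74 (E66), 1.82 (E251) and 2.82 CPM (E264), and KD males ran from 1.56 to 6.30 CPM (median 2.60). The male value was 0.34 (SE 0.316), and it was 0.05 without E64, the highest male library. Gpnmb too varied with the fibroblast score (r = 0.70, rho 0.78), and with that covariate the male value was -0.11.

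Cd9 encodes a tetraspanin, a membrane organiser that microglia share with oligodendrocytes, and its diet differences had the narrowest intervals of the 10. In CD females it was at 28.9 (E62), 30.5 (E67), 19.3 (E249), 27.0 (E265) and 28.5 CPM (E228), and in KD females at 39.99 (E61), 38.6 (E68), 25.2 (E207) and 24.6 CPM (E227). CD males were at 34.9 (E51), 37.7 (E58), 30.9 (E66), 23.2 (E251) and 26.0 CPM (E264), and KD males ran from 14.9 to 37.3 CPM (median 25.6). The log2 fold changes were 0.12 (95% interval -0.21 to 0.45) in females and -0.18 (95% interval -0.48 to 0.12) in males. Cd9 varied with the oligodendrocyte score (r = 0.70), and r was 0.28 without E254 and E64, the libraries with the lowest sums of those markers. The oligodendrocyte markers summed to 2969 to 5295 CPM in CD males, 1621 to 4643 CPM in KD males, 3223 to 3880 CPM in CD females and 3791 to 5084 CPM in KD females. All 13 tested were lower on the KD in males, with a median of -0.44, and 12 of 13 were higher in females. With the oligodendrocyte score as a covariate the log2 fold change of Cd9 was 0.010 in females and -0.0013 in males, and the diet by sex value went from 0.30 to 0.011.

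Fitted within each library series, 4 of the 10 genes were higher on the KD in females in both series, namely Cd68, Lpl, Trem2 and Tyrobp, and Gpnmb was lower in both. The other 5 had opposite signs. The median log2 fold change of members females was 0.56 in series 1 and -0.10 in series 2. In males 4 were higher in both series (Cd68, Lpl, Spp1 and Tyrobp) and 4 were lower in both. Leaving out E227, E249 and E59 gave 3 called members in females, which were Lpl, Clec7a and Cd68, and none in males. There 2045 of all genes were called in females. In that setting, as within series 1 alone, the female diets differ completely in striatal markers too.

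**Figure D3:**
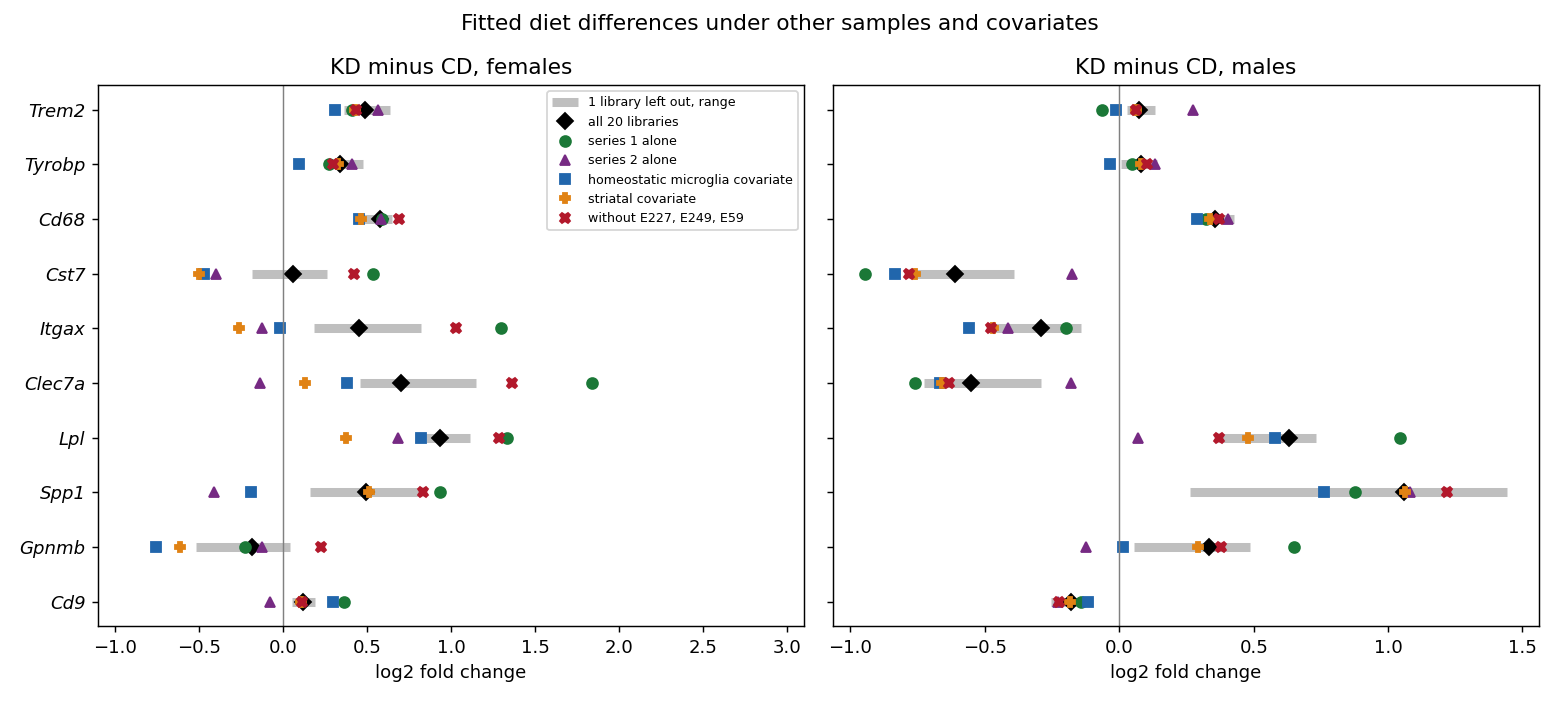
Fitted log2 fold change of KD minus CD (x axis) of each gene in females (left) and males (right). Black diamonds are the fit over 20 libraries, grey bars the range when any 1 library is left out, and the other symbols the fit within a library series, with a marker score as covariate or without 3 libraries. Cd68, Trem2, Tyrobp and Lpl stay above 0 in females for every symbol, and Cst7, Itgax, Clec7a and Spp1 fall on both sides of 0 or close to it.

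Across sexes, 9 of the 10 genes were higher in females, and the median log2 difference was 0.21. Itgax had a mean of 1.92 CPM (SD 1.02, n = 9) in females and 0.848 CPM (SD 0.344, n = 11) in males. Of the females 8 of 9 lay above the male median, and 5 of 9 above every male. The difference, averaged over the diets, was 1.20 (SE 0.307, adjusted p = 0.142 by edgeR). Clec7a had a mean of 4.33 CPM (SD 2.38) in females and 2.08 CPM (SD 0.885) in males, with a difference of 1.04 (SE 0.275, adjusted p = 0.155 by edgeR). Gpnmb (0.65, SE 0.234) and Cst7 (0.58, SE 0.274) were also at an unadjusted p under 0.05, with adjusted p of 0.254 and 0.360 by edgeR.

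These 4 of 10 genes compare with 13.6% of all genes at that p. None of the 10 and 0.134% of all genes passed FDR 0.1 and a 1.5-fold difference between the sexes by edgeR's quasi-likelihood test. Of all genes, the likelihood ratio test called 286 between the sexes and DESeq2 212. Each of these tests called Itgax and Clec7a, with adjusted p of 0.0178 and 0.0256 by the former and of 0.0278 and 0.0370 by the latter. Both genes were higher in females within series 1 (0.81 and 0.72) and within series 2 (1.4997 and 1.18). Trem2 differed between the sexes by 0.032 (95% interval -0.24 to 0.30), Tyrobp by 0.20 and Cd68 by 0.21. With the homeostatic microglia score as a covariate the values were 0.68 for Itgax and 0.68 for Clec7a, and with the striatal score they were 0.82 and 0.68.

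Other cell type markers differed between the sexes as well. General microglia and macrophage genes were higher in females in 16 of 17, with a median of 0.24. At an unadjusted p under 0.05, 11 of them were higher and 1 was lower, where 13.6% of all genes were under it in either direction. Their score had r = 0.695 with Itgax and 0.61 with Clec7a. Border macrophage markers were higher in females in 10 of 13 (median 0.51, 5 at that p). Striatal markers were higher in females in 19 of 19 (median 0.95, 6 at an unadjusted p under 0.05), and their score had r = 0.64 with Itgax and 0.65 with Clec7a. Endothelial markers were higher in 10 of 10 (median 0.25, 6 at that p), with sums of 322 to 459 CPM in females and 284 to 372 CPM in males. Cortical excitatory markers were lower in 12 of 14 (median -0.44, 7 at that p). The part of the general microglia and macrophage, border macrophage, endothelial and cortical markers in the sex values was not tested.

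Between the library series, 8 of the 10 genes were lower in series 2, and the median was -0.26 against -0.016 over all genes. Cd9 (-0.47, adjusted p = 0.00429 by edgeR), Cd68 (-0.34, adjusted p = 0.0328) and Trem2 (-0.29, adjusted p = 0.108) were at an unadjusted p under 0.05, where 37.9% of all genes were. None of the 10 reached the 1.5-fold change needed to be called by edgeR or DESeq2, and 7.24% of all genes were called. The series are in every fit unless stated.

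Among the 45 pairs of genes, r over the 20 libraries, with the mean of each series subtracted, had a median of 0.24, and 6 pairs were over 0.6. These fell into 2 groups. Trem2, Tyrobp and Cd68 were alike, with r = 0.87 for Trem2 and Tyrobp (rho 0.83), 0.75 for Tyrobp and Cd68 and 0.72 for Trem2 and Cd68. Cst7, Itgax and Clec7a were alike as well, with r = 0.73 for Cst7 and Itgax, 0.72 for Itgax and Clec7a and 0.65 for Cst7 and Clec7a. Between the groups r ran no higher than 0.44 (Itgax and Cd68), and it was 0.06 for Trem2 and Clec7a. The libraries share tissue, depth and composition, and the values are descriptions.

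The first group was the same within each series, where r of Trem2 and Tyrobp was 0.81 and 0.90. Without E265 and E61, the libraries farthest from the median of Trem2, it was 0.80. For Cst7 and Clec7a r was 0.77 in series 1 and 0.50 in series 2. Between the groups, r in series 2 was 0.55 for Tyrobp and Cst7 and 0.53 for Itgax and Cd68, against -0.13 and 0.31 in series 1. Spp1, Gpnmb, Lpl and Cd9 had r over 0.6 with no other member over the 20 libraries, but some had within 1 series. In series 2 Gpnmb had r = 0.78 with Cst7, 0.74 with Itgax and 0.66 with Clec7a, against -0.09, 0.16 and 0.02 in series 1. In series 1 Spp1 had r = 0.81 with Cd68, against 0.20 in series 2. Over the 20 libraries Lpl was nearest to Cd68 (r = 0.58) and Cd9 to Clec7a (r = 0.46). For Spp1 and Gpnmb r was 0.43 and rho 0.74, and r was 0.74 within series 1, 0.21 within series 2 and 0.55 without E213 and E64.

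**Figure D4:**
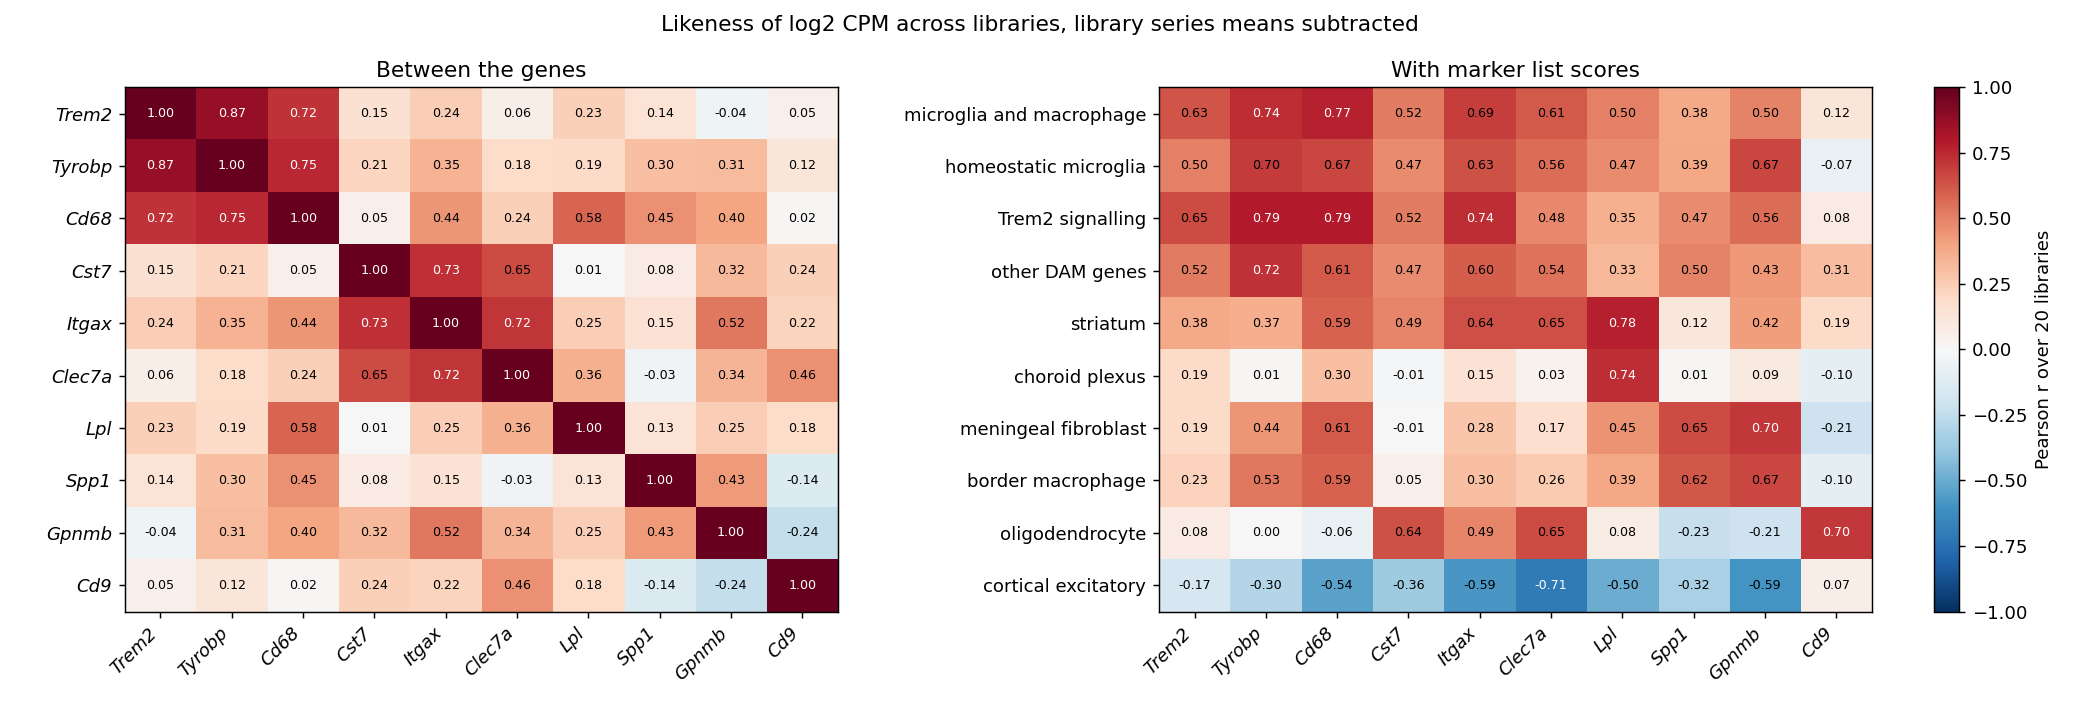
Pearson r of log2 CPM over the 20 libraries, with the mean of each library series subtracted, between the 10 genes (left) and between the genes and the mean z-scores of marker lists (right). Trem2, Tyrobp and Cd68 form one block and Cst7, Itgax and Clec7a another, Lpl is most like the striatum and choroid plexus scores, Spp1 and Gpnmb the fibroblast score, and Cd9 the oligodendrocyte score.

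Among all 15660 genes, those most like Tyrobp were C1qa (r = 0.93), Csf1r (0.90) and C1qb (0.90). Those most like Trem2 were Epn2 (0.89), Csf1r (0.89) and Tyrobp (0.87). C1qa and C1qb encode chains of complement C1q, and Csf1r the receptor that microglia need to survive. For Clec7a they were Mpeg1 (0.92), which encodes the macrophage perforin, Plek (0.91) and Gins3 (0.91). For Cd68 they were Lrig1 (0.92), Galnt10 (0.92) and Tmem91 (0.91), and for Lpl they were Arpp21 (0.92), Rerg (0.91) and Rcn1 (0.90). Arpp21 encodes a phosphoprotein abundant in striatal neurons. The nearest member to Lpl was at rank 953 and to Spp1 at rank 974.

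For Spp1 the most alike genes were Slc6a12 (0.81), Col6a3 (0.81) and Klf4 (0.81), the second of which encodes a collagen chain. For Cd9 they were Pmp22 (0.82), a myelin protein gene, Nefm (0.79) and Vstm5 (0.76). For Cst7 they were Acsm5 (0.82), Apobec1 (0.82) and Gpsm2 (0.81), for Itgax Gnrh1 (0.85), Lrrc9 (0.84) and Ldb3 (0.84), and for Gpnmb Chrna10 (0.86), Zfp608 (0.85) and Fam120a (0.85). No member was among the 3 genes most like any of these.

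By library, E61 and E68, the KD females of series 1, were each among the 5 highest libraries for 8 of the 10 genes, and E61 was the highest of all for 4 (Trem2, Tyrobp, Cd68 and Cd9). KD female E207 was among the 5 highest for 6 genes, and KD female E227 for 2. At the other end, CD male E251 was among the 5 lowest libraries for 7 genes and KD male E256 for 6.

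Of 30 further disease-associated genes 28 were tested, and in females 19 were higher on the KD, with a median of 0.05. At an unadjusted p under 0.05 were 4 of the 28, all higher, where 11.4% of all genes were under it in either direction. They were Apoc1 (1.003), an apolipoprotein gene, and Timp2 (0.43), a metalloproteinase inhibitor, with 2 more. These were Npc2 (0.28), a carrier of cholesterol out of lysosomes, and the receptor gene Axl (0.22). In males Apoc1 (1.02) and Timp2 (0.48) were higher and Cd83 (-0.41) lower at that p, where 3.56% of all genes were. The male median was 0.01. None of these genes was called in either sex.

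Genes that carry the signal of Trem2 and Tyrobp gave a median of 0.18 in females (19 of 25 higher) and 0.04 in males (14 of 25). Pik3ap1 (0.64), an adaptor of PI3-kinase, and Adam17 (0.28), a protease that sheds Trem2, were higher in females at an unadjusted p under 0.05. These 2 of 25 compare with 11.4% of all genes under it in either direction. Pik3r1 (-0.27), a PI3-kinase regulatory subunit, was lower in males, as 1 of 25 at that p, where 3.56% of all genes were. The score of this list varied with Tyrobp (r = 0.79), Cd68 (0.79), Itgax (0.74) and Trem2 (0.65) across libraries.

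Homeostatic genes are those that microglia lower on entering the disease-associated state. Of 17 such genes 16 were higher on the KD in females, with a median of 0.15, and 14 in males, with a median of 0.08. Csf1r (0.40, SE 0.145) was the 1 of 17 at an unadjusted p under 0.05 in females, where 11.4% of all genes were. Summed, the 17 genes ran from 576 to 762.01 CPM in CD females, from 716 to 898 CPM in KD females, from 575 to 742 CPM in CD males and from 575 to 784 CPM in KD males.

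General microglia and macrophage genes gave a median of 0.39 in females, with 16 of 17 higher. At an unadjusted p under 0.05, 9 were higher and 1 was lower, where 11.4% of all genes were under it in either direction. C1qb (0.55), the Fc receptor gene Fcgr3 (0.41), Aif1 (0.45), which encodes Iba1, and the protease gene Ctss (0.41) had the smallest p. Of these none was called. Their sums were 230 to 333 CPM in CD females and 318 to 498 CPM in KD females, and 236 to 343 CPM in CD males and 238 to 340 CPM in KD males, where the median was 0.03. The border macrophage markers, which mark macrophages of meninges and vessels, were higher on the KD in 10 of 13 in females (median 0.52) and in 12 of 13 in males (median 0.42), none at an unadjusted p under 0.05. Their sums were 34.4 to 69.1 CPM in CD females, 52.5 to 69.0 CPM in KD females, 20.8 to 56.3 CPM in CD males and 33.3 to 79.4 CPM in KD males. Of the 5 blood leukocyte markers tested, 4 were lower on the KD in females (median -0.46) and 4 in males (median -0.35). At an unadjusted p under 0.05, 3 were lower in females, where 11.4% of all genes were under it, and 0 in males. The leukocyte sums were 19.9 to 26.4 CPM in CD females and 15.7 to 22.3 CPM in KD females.

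With the score of the homeostatic genes as a covariate, the log2 fold changes in females were 0.31 for Trem2, 0.10 for Tyrobp, 0.45 for Cd68 and 0.82 for Lpl. Those of Cst7 (-0.47), Itgax (-0.015) and Spp1 (-0.19) were then below 0, and that of Gpnmb went from -0.18 to -0.76. The score itself differed with the diet in females, as the sums show, and none of the 10 genes was called in that fit. Between females and males the homeostatic genes were higher in 16 of 17, and Gpr34, a lysophospholipid receptor gene, passed the threshold at 0.67 (adjusted p = 0.0467 by edgeR).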

How the data were processed

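Total RNA of frozen cortex was sequenced as stranded 50-bp read pairs, 1 library for each of 20 mice. STAR was the aligner and mm10 the genome, and the authors deposited whole-number counts of reads for each gene, not normalized. Aligner version, gene annotation and the strand counted are not given in the sources used here. Labels gave the groups (SD there is named CD here), and the prefix of a library's number gave its series. From the deposited counts, CPM were computed over each library's total, with a prior count of 2 added for values on the log2 scale. The test was that of edgeR 4.0.16 (R 4.3.3), run on 15660 of 23413 genes (filterByExpr), with upper-quartile scaling, 4 groups and the library series in the model, the robust quasi-likelihood F test and Benjamini-Hochberg adjustment over all genes tested. The thresholds were FDR 0.1 and 1.5-fold, as in the study. The study's RUVg settings are not specified, so the series term stood in its place and RUVg (1 or 2 factors, all but the 5000 genes of smallest p as controls) was an alternative. DESeq2 1.42.0 was another.

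SE is the log2 fold change over the square root of F, and intervals are at 95%. Replicates are separate mice, and no 2 libraries of a group agreed within sampling noise (chi-square per degree of freedom 7.01 to 112 over 41 pairs). Scores average the z-scores of log2 CPM over a list's genes. CPM per kb used the union of all exons of each GENCODE gene model as its length. The fit was tested on simulated counts. The genes, lists and tests were chosen with earlier results of these data known. Named beside the 10 genes are members of the lists with an unadjusted p under 0.05 for the diet (at most 4 for each list and sex), the 3 genes most like each of the 10 and the genes that describe a library. The rule does not cover Gpr34, which was chosen once its values had been seen. The result of 1 list gene is not reported here. Totals of at least 12207161 counts set the precision of low genes.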

Additional observations from a re-analysis of the deposited data

Results flagged for a closer look

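In 7 of 40 combinations of gene and group, the library at 1 end lay apart from the others by Dixon's ratio, which is its gap to the nearest library over the range of the group, above the 95% critical value. Chance gives about 2 in 40. Among KD males, E64 was high for Gpnmb (ratio 0.678) and for Tyrobp (0.654), E59 for Lpl (0.649) and E213 for Spp1 (0.752). E64 had the highest sum of meningeal fibroblast markers (553 CPM) and the lowest of oligodendrocyte markers (1621 CPM) of the 20 libraries, and E59 the highest sums of striatal (4410 CPM) and choroid plexus markers (2390 CPM). Among CD females, E249 was high for Clec7a (0.789) and for Spp1 (0.817), and its striatal markers (1375 CPM) and fibroblast markers (339 CPM) were the highest of that group. Among CD males, E264 was high for Spp1 (0.842), with fibroblast markers at 240 CPM, the highest of that group. The part of these markers in the values was not tested. For E213, whose Spp1 was 150.1 CPM, the fibroblast sum was 160 CPM, inside the range of the other KD males.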

How the results depend on the processing

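Under 18 other settings and with each of 20 libraries left out in turn, no member was called in males. In females 0 were called, against 1 with 2 RUVg factors, with the likelihood ratio test and with DESeq2. There were 2 in series 1 alone, 3 without E227, E249 and E59, and 0 to 3 with 1 library left out (3 without E249, 2 without E227). Of all genes, 2 RUVg factors gave 268 called in females, the likelihood ratio test 220, DESeq2 253 and series 1 alone 865. Without the 3 libraries there were 2045, without E249 alone 1046 and without E227 alone 906. Called between the sexes were 2 with the likelihood ratio test, with DESeq2 and without the 3 libraries. With 1 library left out there were 0 to 3 (3 without E227, 2 without E59). Of all genes, the likelihood ratio test called 286 between the sexes, DESeq2 212 and the fit without the 3 libraries 729. Without E227 alone there were 813, and without E59 alone 204. The diet by sex count was 2 without the 3 libraries. The count between series was 1 with the homeostatic score and 2 at FDR 0.05 with no fold threshold. At an unadjusted p under 0.05 the female count of 3 became 5 with 1 or 2 RUVg factors, 1 with the striatal score and 0 in series 2 alone, and ran from 2 to 4 with 1 library left out. The male count of 2 became 0 in series 2 alone and 1 with the oligodendrocyte or the fibroblast score, and ran from 0 to 3 (0 without E66). The female median of 0.47 was -0.10 in series 2 alone, 0.20 with the homeostatic score, 0.23 with the striatal score and 0.32 to 0.54 with 1 left out. The male median of 0.08 was -0.0096 in series 1 alone and -0.026 in series 2 alone, -0.023 with the homeostatic score and -0.045 with the fibroblast score. Without the 3 libraries and in series 1 alone, diet and striatal content cannot be told apart in females. The striatal sums of the female diets did not overlap without E249 alone or without E227 alone either.

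Signs turned as follows, and the cause was not tested. In series 2 alone the female diet values of Cst7 (-0.40), Itgax (-0.12), Clec7a (-0.14), Spp1 (-0.41) and Cd9 (-0.075), the male value of Gpnmb (-0.12) and the diet by sex value of Cst7 (-0.22) turned. In series 1 alone they were Trem2 in males (-0.065), Spp1 for diet by sex (0.055) and, between the sexes, Trem2 (-0.029), Lpl (-0.088) and Spp1 (0.59). With the homeostatic score they were Cst7 (-0.47), Itgax (-0.015) and Spp1 (-0.19) in females, Trem2 (-0.012) and Tyrobp (-0.034) in males and, between the sexes, Trem2 (-0.12) and Tyrobp (-0.013). With the striatal score they were Cst7 (-0.50) and Itgax (-0.26) in females and Lpl for diet by sex (-0.10) and between the sexes (-0.12). With the oligodendrocyte score they were Cst7 in females (-0.18) and Itgax in males (0.084), and with the fibroblast score, chosen after seeing the data, Gpnmb in males (-0.11). Between the sexes, Trem2 was -0.0037 without the series term and Lpl -0.023 with 2 RUVg factors. Gpnmb in females was 0.22 without the 3 libraries. With 1 library left out, Cst7 ran from -0.18 to 0.26 and Gpnmb from -0.52 to 0.043 in females, Trem2 from -0.040 to 0.11 and Spp1 from -0.28 to 0.24 between the sexes, and Spp1 from -1.01 to 0.091 for diet by sex. In the fit over 20 libraries none of these was called.

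Genes called in all were 7 in females, from 0 (series 2 alone) to 2045 (without E227, E249 and E59), and 0 to 1046 with 1 library left out (1046 without E249). There were 21 between the sexes, from 4 to 729 and from 8 to 813, and 0 for diet by sex, up to 976 and up to 41. In males there were 0 in every setting. With at least 10 counts in every library, Cst7 and Itgax were not tested. No paired analysis was possible because the labels number replicates by animal and no animal is in 2 groups. Depth limits Itgax and Cst7 most, with as few as 3 and 8 reads in a library.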
